A study of Mus musculus with 6 samples.

Results

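The MS4A membrane protein family was examined through 8 genes: *Ms4a3*, *Ms4a4a*, *Ms4a4c*, *Ms4a6b*, *Ms4a6c*, *Ms4a6d*, *Ms4a7* and *Ms4a8a*. They were chosen by name from the 40481 genes of the count table, each was found, and 7 passed the filter on low counts and were tested. The RNA came from unstimulated BMDMs, macrophages grown from mouse bone marrow in medium conditioned by CMG cells, with 3 wild-type and 3 *Scd2-m/-m* samples and 1 poly(A)-selected library each. In *Scd2-m/-m* mice, a floxed *Scd2* gene, which encodes a stearoyl-CoA desaturase, is deleted by a lysozyme M-Cre transgene that is active in myeloid cells. Adult mice of both sexes were used in the study, and neither the strain, the sex of each sample nor whether the wild-type mice carried the floxed allele or Cre is given in the sources used here. The comparison asks how these transcripts differ in resting macrophages after myeloid deletion of the desaturase gene.

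MS4A proteins span the membrane several times with both ends in the cytoplasm, and many of them sit next to other receptors and change how those receptors are held or signal. The best known are CD20, the B cell antigen encoded by *Ms4a1*, and the beta chain of the high-affinity IgE receptor, encoded by *Ms4a2*. In the myeloid lineage *Ms4a3* marks granulocyte-monocyte progenitors, *Ms4a4c* and *Ms4a6c* are known from monocytes, and *Ms4a4a* and *Ms4a7* are known from mature macrophages. *Ms4a6b* was first studied in T cells and is also made by myeloid cells, *Ms4a6d* has been linked to the restraint of inflammasome priming, and *Ms4a8a* to alternatively activated macrophages.

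The 8 genes lie within 573 kb of chromosome 19 (GRCm38), from 11067471 to 11640851, about 32.7 Mb from *Scd2* on the same chromosome. The order along the chromosome is *Ms4a8a* (11067471 to 11081102, minus strand), *Ms4a7* (11321039 to 11336146, minus), *Ms4a4a* (11375523 to 11392790, plus), *Ms4a4c* (11404770 to 11427246, plus), *Ms4a6c* (11469366 to 11482192, plus), *Ms4a6b* (11516512 to 11531256, plus), *Ms4a6d* (11586604 to 11604849, minus) and *Ms4a3* (11629496 to 11640851, minus). RefSeq promoter windows, of 250 bases before and 50 bases after a transcription start on GRCm38.p6, were found for 7 of the 8 genes, all but *Ms4a6d*. Windows of 4 genes are printed, 5′ to 3′ on the strand of the gene, because they show a pair of neighbours with like promoters and another pair without. Capitals mark matches to GAAANTGAA, a motif of the interferon regulatory factor (IRF) type, and to AGGAAGT, a motif of the ETS type that PU.1 also binds, searched on both strands.
Ms4a6c, chr19:11469118-11469417, plus strand: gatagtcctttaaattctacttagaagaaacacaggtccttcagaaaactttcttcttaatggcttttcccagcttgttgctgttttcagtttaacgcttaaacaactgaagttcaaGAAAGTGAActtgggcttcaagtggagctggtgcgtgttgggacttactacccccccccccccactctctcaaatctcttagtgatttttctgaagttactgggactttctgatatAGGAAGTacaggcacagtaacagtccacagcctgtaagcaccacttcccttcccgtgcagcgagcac
Ms4a6b, chr19:11518309-11518608, plus strand: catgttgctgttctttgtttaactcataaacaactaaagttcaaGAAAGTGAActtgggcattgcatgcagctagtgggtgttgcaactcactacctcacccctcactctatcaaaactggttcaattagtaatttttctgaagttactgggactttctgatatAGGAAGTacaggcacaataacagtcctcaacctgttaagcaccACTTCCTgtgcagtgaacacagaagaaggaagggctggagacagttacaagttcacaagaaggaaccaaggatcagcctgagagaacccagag
Ms4a4a, chr19:11375238-11375537, plus strand: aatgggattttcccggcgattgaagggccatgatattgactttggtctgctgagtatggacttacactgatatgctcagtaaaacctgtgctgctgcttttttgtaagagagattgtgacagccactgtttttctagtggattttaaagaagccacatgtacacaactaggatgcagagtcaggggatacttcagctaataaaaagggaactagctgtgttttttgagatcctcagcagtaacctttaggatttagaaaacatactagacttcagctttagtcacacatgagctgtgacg
Ms4a4c, chr19:11407411-11407710, plus strand: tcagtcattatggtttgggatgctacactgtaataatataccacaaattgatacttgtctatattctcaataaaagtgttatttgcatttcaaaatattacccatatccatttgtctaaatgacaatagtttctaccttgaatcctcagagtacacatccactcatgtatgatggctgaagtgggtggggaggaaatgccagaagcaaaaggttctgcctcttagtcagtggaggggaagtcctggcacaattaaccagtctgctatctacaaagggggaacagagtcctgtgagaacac
The *Ms4a6c* and *Ms4a6b* windows were identical in 82.4% of 233 aligned positions and shared an unbroken run of 48 bases that holds the same AGGAAGT. The IRF-type match began at position -133 in *Ms4a6c* and -206 in *Ms4a6b*, counted from the start site with the first transcribed base as 1. The shared AGGAAGT began at -17 in *Ms4a6c* and -86 in *Ms4a6b*, and *Ms4a6b* had another match on the opposite strand at -43. GAAANTGAA occurred in 2.21% and AGGAAGT in 9.35% of 32851 promoter windows of this length, and the matches of the 2 motifs did not overlap in these windows. Of the 19 windows of *Ms4a* genes, these 2 were the ones that held the IRF-type motif. TGANTCA, the AP-1 motif, occurred in 7.81% of all windows and, among these 8 genes, in that of *Ms4a8a* and in 1 of 2 windows of *Ms4a7*. A match is a description of letters, and binding was not measured.

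Library totals ran from 46285176 to 57629638 counts and overlapped between the groups. Of 14778 genes tested, 17.5% had a false discovery rate (FDR) below 0.05 by edgeR's quasi-likelihood test (Benjamini-Hochberg adjustment), with 9.65% higher and 7.84% lower than in wild type, and 34.9% had groups that did not overlap, with all libraries of one genotype above all of the other. *Scd2* itself had a log2 fold change of -0.59 (FDR = 0.100 by the same test) over all of its exons together, and the deleted part was not measured apart. *Scd2-m/-m* replicate 1 held 59.5 CPM of *Scd2*, beside 38.0 and 39.8 CPM in the other *Scd2-m/-m* libraries and 62.7 to 77.8 CPM in wild type. With that library left out the *Scd2* value was -0.83 (FDR = 8.87e-05 by edgeR), and limma-voom on all 6 libraries gave -0.62 (FDR = 0.0105). The members called were *Ms4a4c* and *Ms4a6d* both with and without it. The macrophage genes *Csf1r*, *Adgre1* and *Itgam* averaged 7031, 3320 and 1267 CPM in wild-type and 5414, 2363 and 1185 CPM in *Scd2-m/-m* libraries. *Csf1r* and *Adgre1* were lower at an FDR below 0.05 (0.00158 and 0.00428 by edgeR), and *Itgam* did not pass (FDR = 0.368). CPM is a gene's count per 1000000 counts of a library size scaled by the trimmed mean of M values (TMM) method. Whether the replicates were separate animals or cultures is not given, so p-values measure the spread between these samples, and in bulk RNA fewer cells of a type and less RNA per cell cannot be told apart.

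Of the 7 MS4A genes tested, *Ms4a4c* and *Ms4a6d* passed an FDR of 0.05, both higher in *Scd2-m/-m* BMDMs, and none passed it as lower. The 2 genes are 28.6% of those tested, beside 17.5% of all genes. At an unadjusted p below 0.05 in edgeR, 1 gene was lower, *Ms4a4a*, which limma-voom called lower as well. The log2 fold changes were positive for 4 genes and negative for 3, with a median of 0.35 beside 0.0039 over all genes. The groups of 3 of the 7 genes, *Ms4a4a*, *Ms4a4c* and *Ms4a6d*, did not overlap, beside 34.9% of all genes tested. The plot of all 8 genes by library shows these values.

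**Figure D1:**
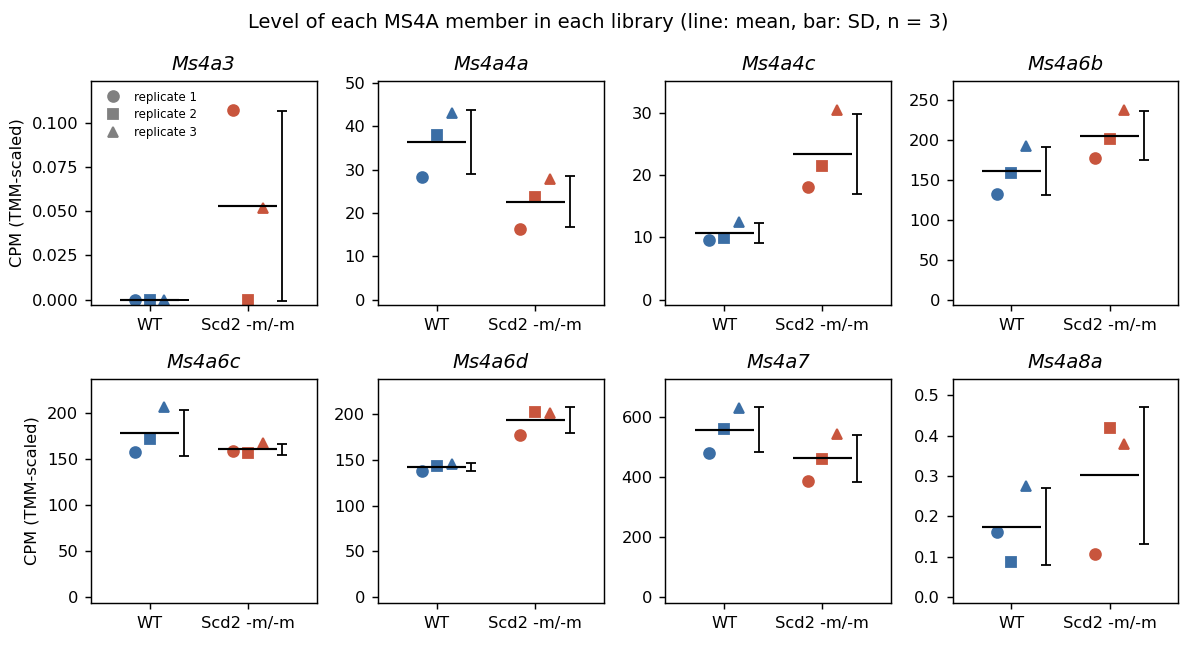
Level of each MS4A gene in each library, in TMM-scaled CPM on linear axes from 0, for 3 wild-type (blue) and 3 *Scd2-m/-m* (red) libraries, with the replicate number given by the shape of the point, the mean as a line and the SD as a bar. *Ms4a4c* and *Ms4a6d* libraries of *Scd2-m/-m* BMDMs sit above all wild-type libraries (from 18.1 against at most 12.5 CPM, and from 177 against at most 146 CPM), and those of *Ms4a4a* sit below (at most 27.8 against at least 28.3 CPM).

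*Ms4a4c* (ENSMUSG00000024675), which is inducible by interferon, showed the largest log2 change in size among the 7 tested members. Listed in order of replicate number here and for the genes that follow, its 3 wild-type libraries held 9.61, 9.93 and 12.5 CPM, and its 3 *Scd2-m/-m* libraries held 18.1, 21.5 and 30.6 CPM. Every *Scd2-m/-m* library was above every wild-type library, and replicate 3 was the highest of each genotype. The mean rose from 10.7 ± 1.57 to 23.4 ± 6.44 CPM (SD, n = 3), a fold change of 2.19 (95% confidence interval 1.55 to 3.10), or 1.13 ± 0.21 on the log2 scale (standard error; FDR = 0.0119 by edgeR's quasi-likelihood test). Without wild-type replicate 2 the log2 fold change was 1.08 and the FDR 0.0528 by edgeR, so the call was lost without that library. Of the 75-base stretches in the *Ms4a4c* transcripts, 3.78% also occur in *Ms4a4b*, which had at most 122 counts in a library.

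*Ms4a6d* (ENSMUSG00000024679) rose less and varied least among wild-type libraries. Its level was 138, 143 and 146 CPM in wild-type libraries against 177, 203 and 201 CPM in those of *Scd2-m/-m* BMDMs. The lowest *Scd2-m/-m* library was above the highest wild-type library. The mean rose from 142 ± 4.21 to 194 ± 14.1 CPM (SD, n = 3), to 136% of wild type, with a log2 fold change of 0.44 (95% confidence interval 0.30 to 0.58, standard error 0.064, FDR = 3.17e-04 by edgeR). The coefficient of variation among wild-type libraries was 2.95%, against 13.5% to 20.5% for *Ms4a4a*, *Ms4a4c*, *Ms4a6b*, *Ms4a6c* and *Ms4a7*. Among *Scd2-m/-m* libraries it was 7.29%, above the 3.78% of *Ms4a6c*. This gene was called with each library left out in turn, with log2 fold changes between 0.41 and 0.50.

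*Ms4a4a* (ENSMUSG00000101389), a surface protein of macrophages whose human ortholog is induced by IL-4 and by glucocorticoids, differed the other way without passing the FDR. The wild-type libraries held 28.3, 38.0 and 43.0 CPM, while the *Scd2-m/-m* libraries held 16.3, 23.8 and 27.8 CPM. The groups did not overlap, but the highest *Scd2-m/-m* library came close to the lowest wild-type library. The means were 36.4 ± 7.48 and 22.6 ± 5.82 CPM (SD, n = 3), or 62.1% of wild type, with a log2 fold change of -0.69 (95% confidence interval -1.33 to -0.043, standard error 0.25, FDR = 0.144 by edgeR). limma-voom called it, with -0.70 (FDR = 0.0193), as did edgeR without wild-type replicate 1, with -0.84 (FDR = 0.0489). Adding the replicate number to the edgeR model as a block gave -0.70 (FDR = 1.01e-05).

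*Ms4a7* (ENSMUSG00000024672), which had the highest counts of the 8 genes, reached 482, 563 and 632 CPM in wild-type libraries, against 387, 461 and 544 CPM in *Scd2-m/-m* libraries. The ranges of the genotypes overlapped. The means were 559 ± 75.2 and 464 ± 78.3 CPM (SD, n = 3), with a log2 fold change of -0.27 (95% confidence interval -0.58 to 0.047, FDR = 0.234 by edgeR). With no filter on low counts the same test gave -0.27 with an FDR of 0.0133, and with the replicate number as a block -0.27 with an FDR of 0.00256. With 1 library left out it was between -0.40 and -0.15 and was not called, the smallest size being without *Scd2-m/-m* replicate 1.

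*Ms4a6b* (ENSMUSG00000024677) stood at 132, 159 and 193 CPM in wild-type libraries, against 177, 201 and 238 CPM in *Scd2-m/-m* libraries. Here too the ranges overlapped, although the mean of the *Scd2-m/-m* libraries was higher. The means were 161 ± 30.7 and 205 ± 30.9 CPM (SD, n = 3), with a log2 fold change of 0.35 (95% confidence interval -0.056 to 0.75, FDR = 0.224 by edgeR). Without wild-type replicate 3 it was 0.50 (FDR = 0.0269 by edgeR), and the lowest value with 1 library left out was 0.22. Using the replicate number as a block gave 0.36 (FDR = 3.15e-04 by edgeR).

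*Ms4a6c* (ENSMUSG00000079419), the gene with the promoter most like that of *Ms4a6b*, stood at 157, 172 and 206 CPM in wild-type libraries, compared with 159, 156 and 168 CPM in *Scd2-m/-m* libraries. The genotypes overlapped, and the *Scd2-m/-m* libraries lay closer together than the wild-type ones. The means were 178 ± 25.2 and 161 ± 6.07 CPM (SD, n = 3), with a log2 fold change of -0.15 (95% confidence interval -0.33 to 0.034, FDR = 0.261 by edgeR), and none of the alternative settings called it. Without wild-type replicate 3 the value was -0.033, and without wild-type replicate 1 it was -0.23. A gene on the opposite strand, *BE692007* (11470166 to 11484578), overlaps *Ms4a6c*, and 47.7% of the 75-base stretches of *Ms4a6c* transcripts also occur outside the family, in *BE692007* or *Prdm11*, when strand is ignored. Whether the counting used strand is not given, so reads of these overlapping genes may not have been told apart. *BE692007* had a log2 fold change of 0.10 (FDR = 0.657 by edgeR).

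The other 2 genes were near the limit of detection. *Ms4a8a* (ENSMUSG00000024730) drew 8, 4 and 14 counts from the wild-type libraries and 6, 21 and 22 from the *Scd2-m/-m* libraries, with overlapping groups. Its log2 fold change of 0.76 (95% confidence interval -0.48 to 1.99, FDR = 0.410 by edgeR) could not be told from 0 at this depth. *Ms4a3* (ENSMUSG00000024681) was at 0 counts throughout the wild-type libraries and at 6, 0 and 3 counts in those of *Scd2-m/-m* BMDMs, and it did not pass the filter. No fold is given for these 9 counts, since the wild-type libraries had none. Of the counts between 1 and 20, 60.9% to 64.9% in each library were even numbers, so 1 count may not stand for 1 read.

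**Figure D2:**
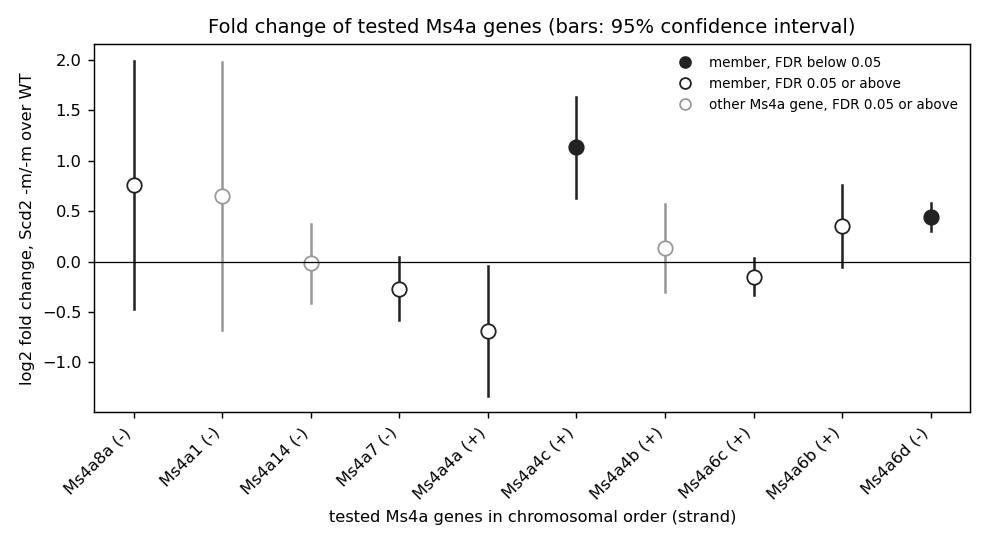
Log2 fold change of *Scd2-m/-m* over wild-type BMDMs (vertical axis) for the 10 tested *Ms4a* genes in chromosomal order with their strand, with 95% confidence intervals from edgeR's quasi-likelihood test as bars. Filled points passed an FDR of 0.05 and grey points are *Ms4a* genes outside the 8. The neighbours *Ms4a4a* (-0.69) and *Ms4a4c* (1.13) lie on opposite sides of 0, and the intervals of *Ms4a4c* and *Ms4a6d* lie wholly above it.

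Fold changes of neighbours are set side by side in the plot in chromosomal order. *Ms4a4a* and *Ms4a4c* are transcribed in the same direction next to each other, apart from a gene on the other strand with at most 2 counts in a library, and their log2 fold changes were -0.69 and 1.13. *Ms4a4b*, the next *Ms4a* gene, had 0.14 (FDR = 0.702 by edgeR). *Ms4a6c* and *Ms4a6b* had -0.15 and 0.35, with intervals that both include 0. Of the 29 genes of the table in this stretch of chromosome 19, 16 were tested, and *Ms4a4c* and *Ms4a6d* were the 2 with an FDR below 0.05.

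Levels of different genes were compared per kb of exon, with all annotated exons of a gene merged. The order depends on these lengths, which were 836 bases for *Ms4a4a* and 4485 for *Ms4a6b*. By CPM in wild type *Ms4a6b* (161) was above *Ms4a4a* (36.4), and *Ms4a7* was first in both genotypes (559 and 464 CPM). In wild-type BMDMs *Ms4a7* was the highest, at 126 ± 16.9 CPM per kb (SD, n = 3), followed by *Ms4a6c* at 87.0 ± 12.3 and *Ms4a6d* at 82.1 ± 2.43 CPM per kb, which overlapped each other. *Ms4a4a* at 43.6 ± 8.95 and *Ms4a6b* at 36.0 ± 6.84 CPM per kb overlapped as well, and *Ms4a4c* at 6.09 ± 0.90 CPM per kb was below them. In *Scd2-m/-m* BMDMs the first place was shared by *Ms4a6d*, at 112 ± 8.13 CPM per kb, and *Ms4a7*, at 104 ± 17.6 CPM per kb, whose libraries overlapped. *Ms4a6c* (78.4 ± 2.96), *Ms4a6b* (45.8 ± 6.89), *Ms4a4a* (27.1 ± 6.96) and *Ms4a4c* (13.4 ± 3.68 CPM per kb) came next, with no overlap between neighbours. *Ms4a8a* and *Ms4a3* were last in both genotypes.

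The level summed over the 8 genes was nearly equal in both genotypes, 380 ± 47.7 CPM per kb in wild-type against 381 ± 43.9 CPM per kb in *Scd2-m/-m* libraries (SD, n = 3), with overlapping ranges. Its make-up differed. The share of *Ms4a7* was 33.0% ± 0.44 in wild-type against 27.3% ± 1.47 in *Scd2-m/-m* libraries (SD, n = 3), and that of *Ms4a4a* was 11.4% ± 1.06 and 7.03% ± 1.08. The shares of *Ms4a6d* (21.8% ± 2.10 and 29.4% ± 1.82), *Ms4a6b* (9.40% ± 0.61 and 12.0% ± 0.46) and *Ms4a4c* (1.60% ± 0.092 and 3.47% ± 0.57) were larger in *Scd2-m/-m* libraries. For these 5 genes no *Scd2-m/-m* library overlapped a wild-type library in share, whereas the share of *Ms4a6c* overlapped (22.8% ± 0.71 and 20.7% ± 2.00). By their own levels *Ms4a7* and *Ms4a6b* did overlap, and 34.9% of all genes tested had levels that did not. No such background was computed for shares. Without division by length the difference in share was -1.23 percentage points in place of -4.35 for *Ms4a4a*, 4.42 in place of 2.60 for *Ms4a6b*, 4.98 in place of 7.67 for *Ms4a6d* and 1.18 in place of 1.87 for *Ms4a4c*, all in the same direction. Shares of one sum are tied to each other, and with 3 libraries against 3 an exact two-sided permutation test cannot go below p = 0.1, so they are given as a description.

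**Figure D3:**
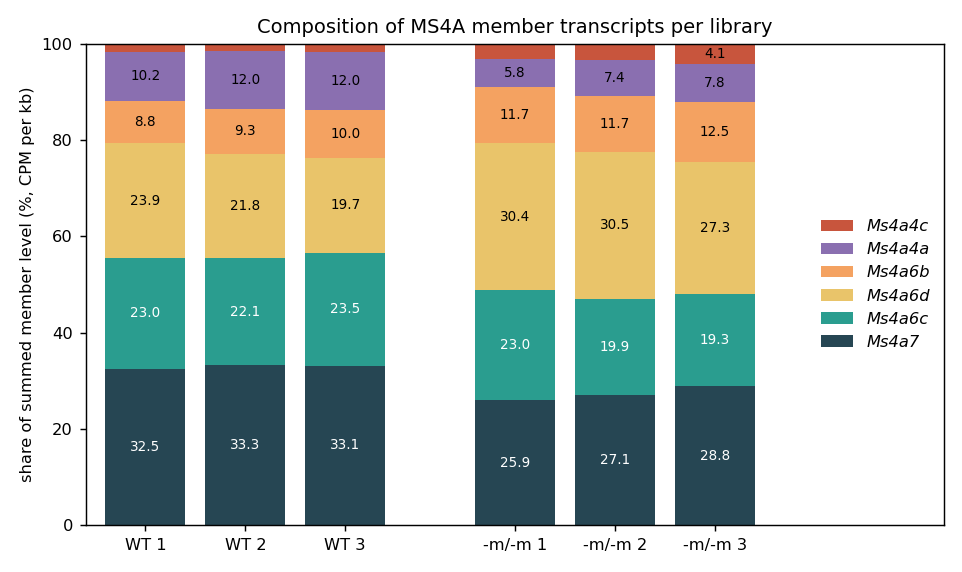
Share of each MS4A gene in the summed level of the 8 genes (vertical axis, % of CPM per kb) in each of the 3 wild-type and 3 *Scd2-m/-m* libraries, as stacked bars with shares above 4% printed; *Ms4a3* and *Ms4a8a* are too small to draw. The *Ms4a7* share lies between 32.5% and 33.3% in wild-type BMDMs and between 25.9% and 28.8% in *Scd2-m/-m* BMDMs, and the *Ms4a6d* share between 19.7% and 23.9% and between 27.3% and 30.5%.

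Ratios taken within a library, in which depth cancels, restate the levels above and are no separate support. No background was computed for ratios, and *Ms4a4c* and *Ms4a4a* are the tested members with the highest and lowest log2 fold changes. *Ms4a4c* counts were 0.262 to 0.340 of *Ms4a4a* counts in wild-type libraries and 0.904 to 1.11 of them in *Scd2-m/-m* libraries, a mean ratio 3.50 times as large. *Ms4a6d* counts were 0.709 to 0.878 of *Ms4a6c* counts in wild-type against 1.12 to 1.30 in *Scd2-m/-m* libraries, so the order of the 2 genes by counts turned. *Ms4a6b* counts were 0.839 to 0.936 of *Ms4a6c* counts in wild-type against 1.12 to 1.42 in *Scd2-m/-m* libraries, although neither gene passed the test by itself. The ratios of *Ms4a6b* to *Ms4a6d* and of *Ms4a7* to *Ms4a6c* overlapped between the genotypes.

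Several members shared their lowest and highest libraries. In *Ms4a4a*, *Ms4a4c*, *Ms4a6b* and *Ms4a7*, 4 of the 7 tested, replicate 1 was the lowest and replicate 3 the highest library of both genotypes, an order held by 6.75% of all genes tested. Any order that was the same in both genotypes was held by 21.2% of all genes tested. The labels do not say what a replicate number stands for.

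Of the 13 other family genes in the table, 5 passed the filter and none passed an FDR of 0.05 in edgeR, while 2 had an unadjusted p below 0.05, both lower. These 2 were *Tmem176a* and *Tmem176b*, MS4A-related genes on chromosome 6 that are expressed in immature dendritic cells and macrophages. *Tmem176b* held 323, 416 and 484 CPM in wild-type libraries against 203, 194 and 288 CPM in *Scd2-m/-m* libraries, with no overlap (log2 fold change -0.84, standard error 0.22, FDR = 0.0623 by edgeR). *Tmem176a* had means of 124 ± 29.8 and 68.6 ± 14.0 CPM (SD, n = 3), also without overlap, and -0.85 (FDR = 0.0814 by edgeR). DESeq2 and limma-voom called both. *Ms4a14*, next to *Ms4a7*, had nearly equal means of 99.9 ± 15.1 and 98.6 ± 18.4 CPM (SD, n = 3, log2 fold change -0.019, 95% confidence interval -0.41 to 0.37, FDR = 0.957 by edgeR). *Ms4a1*, the CD20 gene, was at 0.162 and 0.252 CPM (FDR = 0.525 by edgeR). The 8 genes that did not pass had at most 12 counts in a library, and 3 of them, *Ms4a10*, *Ms4a13* and *Ms4a18*, had 0 counts in every library.

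Among 9 genes for proteins linked to MS4A members, directly or through another protein, 3 were higher and 2 lower at an FDR below 0.05. Of all genes tested, 9.65% were higher and 7.84% lower. The median log2 fold change of the 9 was -0.014. *Vsig4*, a complement receptor that pairs with the *Ms4a6d* product, was at 0.463, 0.889 and 0.748 CPM in wild-type libraries against 2.33, 3.04 and 2.05 CPM in *Scd2-m/-m* libraries. Its groups did not overlap and the log2 fold change was 1.82 (standard error 0.26, FDR = 2.73e-04 by edgeR), at a low level in both genotypes. *Nlrp3*, the inflammasome sensor whose priming that pair has been reported to restrain, fell from 114 ± 3.34 to 91.1 ± 1.98 CPM (SD, n = 3, log2 fold change -0.32, FDR = 0.00142 by edgeR). A link of the *Nlrp3* fall to *Ms4a6d* or *Vsig4* was not tested. *Clec7a*, the beta-glucan receptor dectin-1, which associates with MS4A4A, rose from 43.4 ± 2.33 to 56.8 ± 7.26 CPM (SD, n = 3, log2 fold change 0.39, FDR = 0.0058 by edgeR). Dectin-1 and *Ms4a4a* thus had log2 fold changes of opposite sign.

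*Cdkn3*, the phosphatase that human MS4A3 binds in the cell cycle, rose from 0.360 ± 0.055 to 1.72 ± 0.21 CPM (SD, n = 3, log2 fold change 2.24, FDR = 5.16e-05 by edgeR), while its target *Cdk2* had 0.024 (FDR = 0.868). *Ms4a3* itself had 9 counts over the *Scd2-m/-m* libraries, and a link of the *Cdkn3* rise to it was not tested. *Trem2*, the lipid receptor whose shed form is linked to MS4A4A, had 705 ± 42.6 and 698 ± 47.4 CPM (SD, n = 3, log2 fold change -0.014, FDR = 0.919 by edgeR). Its adaptor *Tyrobp* fell by 0.21 on the log2 scale (FDR = 0.0355 by edgeR), and this call was lost when any 1 of the 6 libraries was left out (FDR between 0.0599 and 0.140). The sheddases *Adam10* and *Adam17* had log2 fold changes of -0.26 (FDR = 0.0564) and -0.056 (FDR = 0.658 by edgeR). DESeq2 called *Adam10* lower (-0.26, FDR = 0.0250), as did edgeR with no filter on low counts (FDR = 0.0019) and without wild-type replicate 3 (-0.36, FDR = 0.00244), while without wild-type replicate 1 it was -0.15 (FDR = 0.183).

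Genes that mark the stages or signals in which MS4A genes are known were counted in lists, as higher or lower at an FDR below 0.05 in edgeR. Over all genes tested, 9.65% were higher and 7.84% lower. Of 10 classical monocyte genes tested, 6 were higher and 1 lower, and the median log2 fold change was 0.84. *Plac8* rose from 0.334 ± 0.13 to 3.42 ± 0.58 CPM (SD, n = 3, log2 fold change 3.35, FDR = 1.94e-06 by edgeR). The higher genes other than *Ccr2* averaged at most 5.13 CPM in either genotype. The lower gene, *F13a1*, which was named after its value was seen, had -0.75 (FDR = 0.00801). *Fn1* (-0.99, FDR = 0.0863), *Vcan* (-0.81, FDR = 0.0883) and *Mgst1* (-0.21, FDR = 0.0554 by edgeR) did not pass. Their *Scd2-m/-m* libraries were nevertheless all below the wild-type ones, and they too were named after their values were seen. The summed level of the list was 248 to 265 CPM in wild-type against 244 to 299 CPM in *Scd2-m/-m* libraries, so the sums overlapped.

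Of 7 tested genes of granulocyte-monocyte progenitors, the stage that *Ms4a3* marks, 3 were higher and 4 did not pass the test (median log2 fold change 1.06), with list sums of 2.38 to 2.98 CPM in wild-type against 4.52 to 5.83 CPM in *Scd2-m/-m* libraries. *Prtn3*, a protease of azurophil granules, was among them (0.120 ± 0.13 and 0.995 ± 0.21 CPM, SD, n = 3, FDR = 0.00324 by edgeR). Of 16 mature macrophage genes, 8 were lower and 3 higher (median -0.26), and their sum was 23851 to 25001 CPM in wild-type against 20165 to 20936 CPM in *Scd2-m/-m* libraries. *C1qa*, which encodes a chain of complement C1q, fell by 0.47 on the log2 scale (FDR = 4.95e-04), and *Axl*, a receptor for dying cells, rose by 0.89 (FDR = 2.96e-06 by edgeR).

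Of 15 interferon-inducible genes, 6 were higher and 9 did not pass the test (median log2 fold change 0.27), among them *Ifi44* (0.90, FDR = 2.61e-04) and *Irf7* (0.39, FDR = 0.00267 by edgeR). Of 9 IL-4 induced genes, 3 were higher and 6 did not pass (median 0.68), and of 8 glucocorticoid induced genes, 3 were lower and 5 did not pass (median -0.16). *Chil3* is among the higher genes of both the IL-4 and the classical monocyte list. *Egr2*, a transcription factor of the IL-4 response, rose by 0.86 (FDR = 5.50e-05), and *Tsc22d3*, which encodes the glucocorticoid-induced leucine zipper, fell by 0.32 (FDR = 0.0244 by edgeR). The plot of the lists shows each tested gene.

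**Figure D4:**
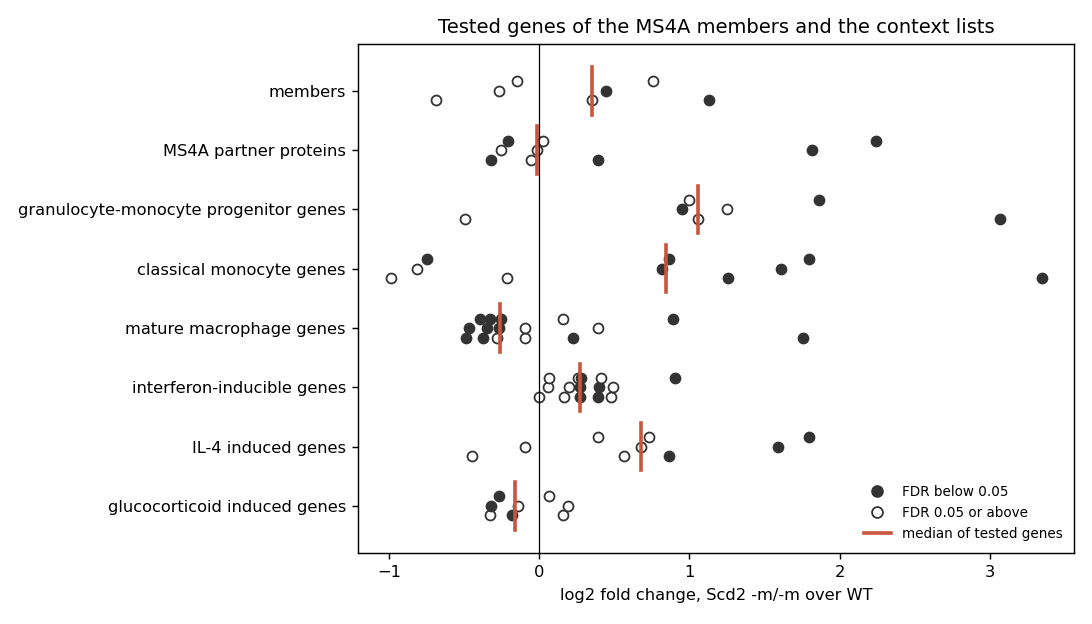
Log2 fold change of *Scd2-m/-m* over wild-type BMDMs (horizontal axis) for each tested gene of the MS4A members and of 7 context lists, 1 list to a row, with filled points for an FDR below 0.05 and a red line at the median of each row. The members lie between -0.69 and 1.13 with a median of 0.35, next to a median of 0.84 for classical monocyte genes and -0.26 for mature macrophage genes.

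Some markers of other cells moved with the genotype. Of 7 neutrophil markers tested, 4 were higher and 1 lower, with list sums of 183 to 191 CPM in wild-type against 159 to 191 CPM in *Scd2-m/-m* libraries. The lower one, *Csf3r*, named after its value was seen, held most of that sum (164 CPM in wild type), and *Ngp*, a neutrophil granule gene, averaged 2.51 and 8.42 CPM. Of 6 dendritic cell markers 2 were higher (list sums 1.31 to 1.79 and 2.13 to 3.37 CPM), and of 4 B cell markers 2 were higher (list sums 54.1 to 119 and 83.6 to 116 CPM). *Flt3* is among the higher genes of both the dendritic cell and the granulocyte-monocyte progenitor list. The mast cell and basophil list summed to 0.607 to 0.907 CPM in wild-type and 1.24 to 1.51 CPM in *Scd2-m/-m* BMDMs, the T cell list to 0.767 to 0.846 and 0.609 to 0.975 CPM, and the stromal list to 2.32 to 4.27 and 2.72 to 3.12 CPM. No marker of these lists was at 0 in every library. The part of these cells, and of the monocyte and macrophage lists, in the MS4A values was not tested.

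The genes whose pattern over the 6 libraries was most like that of a called member were found by the root mean square difference of log2 CPM, each centred on its own mean, among 11803 genes of at least 1 CPM. For *Ms4a4c* these were *Itgb3bp* (0.081), *P2ry14*, a receptor for UDP-glucose (0.141), and *Ccr2*, the chemokine receptor that brings monocytes out of the bone marrow (0.148). *Itgb3bp*, the nearest, had low mean levels of 1.04 and 2.17 CPM and a log2 fold change of 1.07 (FDR = 0.00728 by edgeR). *Ccr2* had mean levels of 47.8 and 115 CPM and a log2 fold change of 1.26 (FDR = 0.0311 by edgeR). Genes picked for a like pattern have a like fold change by that choice, so these values are no separate support. For *Ms4a6d* they were *Ahnak*, a giant scaffold protein (0.0355), *Car13*, a carbonic anhydrase (0.0355), and *Hmgn3*, a nucleosome-binding protein (0.0382). Among the members alone, the nearest was *Ms4a6d* for *Ms4a4c* (0.393) and *Ms4a6b* for *Ms4a6d* (0.164).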

How the data were processed

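RNA from 3 wild-type and 3 *Scd2-m/-m* BMDM samples, grouped by their labels, was measured. STAR alignment to Ensembl's GRCm38 primary assembly was done by the authors, who deposited raw counts per gene, without normalization. The counter and its strand setting were not given in the sources used here. Their table of fold changes, p-values and log2 CPM was not used.

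Of 40757 entries, 276 repeats were removed. Counts were tested with edgeR 4.0.16 (filterByExpr, TMM factors of 0.979 to 1.02, glmQLFit with robust estimation, glmQLFTest) in R 4.3.3, with Benjamini-Hochberg adjustment over 14778 genes and an FDR threshold of 0.05. The test was checked on simulated counts. Replicates of a genotype differed by more than sampling noise (chi-square per gene 10.4 to 31.4). Low counts rest on few reads. Confidence intervals were computed from the edgeR test, which gives none itself, and include the spread between replicates. The standard error was the size of the log2 fold change divided by the square root of the F statistic. The limits were set with a t quantile. Coordinates and exonic lengths come from GENCODE on GRCm38.

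The members and lists were chosen with earlier results of these data known. Named were the 8 members, tested family and partner genes, *Scd2*, at most 4 called genes of each list with the smallest p, and the 3 genes most like each of 2 called members. *BE692007* and the genes *Csf1r*, *Adgre1*, *Itgam*, *F13a1*, *Fn1*, *Vcan*, *Mgst1* and *Csf3r* were added afterwards. Alternatives were RLE and upper-quartile factors, DESeq2 1.42.0, limma-voom (limma 3.58.1) with and without quality weights, other filters and thresholds, halved counts, the replicate block and each library left out. Shares on other scales were added after seeing the data.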

Additional observations from a re-analysis of the deposited data

How the results depend on the processing

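*Ms4a6d* was called under each other normalization, test and filter and with each library left out, and *Ms4a4c* under each but leaving out wild-type replicate 2 (1.08, within 0.89 to 1.29 over the libraries left out). The number of members called was 2, with 5 under limma-voom with quality weights, 1 at an FDR below 0.01, 0 with an absolute log2 fold change above 2, and 1 to 3 with 1 library left out (called higher 1 to 3, called lower 0 to 1). Called lower were 1 member under limma-voom, 2 with quality weights and 1 with no filter. *Ms4a4a* was called by limma-voom (-0.70), with quality weights (-0.69) and without wild-type replicate 1 (-0.84), with -0.86 to -0.50 over the libraries left out. *Ms4a6b* was called with quality weights (0.33) and without wild-type replicate 3 (0.22 to 0.50 over the libraries left out), *Ms4a7* with quality weights (-0.29) and no filter (-0.27), and *Adam10* with quality weights (-0.23). The cause was not tested. Of the other family genes, 2 were called by DESeq2, by limma-voom and by limma-voom with quality weights, and 0 to 2 with 1 library left out. Context genes called numbered 37, and 24 to 42 with 1 library left out, the lowest without wild-type replicate 2. The sign of near-zero values turned for *Ms4a14* (-0.18 to 0.079), *Trem2* (-0.057 to 0.039), *Adam17* (-0.13 to 0.0091) and *Cdk2* (-0.025 to 0.074) with 1 library left out, and for *Trem2* (0.031) and *Cdk2* (-0.064) with quality weights.

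Same-numbered replicates deviated together with correlations of 0.133, -0.069 and 0.111, and not every library correlated best with its own number, so the numbers were not taken as pairs. With the replicate number as a block, 2974 genes were called in place of 2585, with 5 members (2 lower) and 2 other family genes, adding *Ms4a4a* (-0.70), *Ms4a6b* (0.36) and *Ms4a7* (-0.27), and *Adam10* was called (-0.25).

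Without division by length, *Scd2-m/-m* minus wild-type shares were -8.13 percentage points for *Ms4a7*, 4.98 for *Ms4a6d*, 4.42 for *Ms4a6b*, -1.23 for *Ms4a4a* and 1.18 for *Ms4a4c*, against -5.71, 7.67, 2.60, -4.35 and 1.87 per kb. With 3 libraries a group, *Ms4a3* and *Ms4a8a* are limited by counts of at most 22, and the members' p-values by the spread between replicates.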
